A study of Mus musculus with 7 samples.

Results

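Small heat shock proteins and the chaperones that work with them in muscle were followed in C2C12 cells depleted of the long non-coding RNA lnc-SMaRT. The genes were Hspb1, Hspb2, Hspb3, Hspb6, Hspb7, Hspb8 and Cryab, which encode small heat shock proteins, and Bag3, Hspa8 and Unc45b, which encode their partners and a chaperone of myosin. They were chosen by symbol, and all 10 were found among the 11642 rows of the table of RPKM values (reads per kilobase of gene, scaled to the size of the library). All 10 also passed the filter on low values, a mean RPKM of at least 0.5, and Hspb6 passed it narrowly. C2C12 is a line of mouse myoblasts that stop dividing and fuse into myotubes in low serum. Total RNA was sequenced on day 2 of differentiation. There were 2 samples treated with a scramble siRNA (si-SCR) and 2 treated with siRNA #1 against lnc-SMaRT (si-SMaRT). All came from this line with no other genetic change named. The paper speaks of 2 independent populations of cells. Whether a si-SCR and a si-SMaRT sample share a population is not stated, and the main tests took the samples as unpaired. The reads recovered from the RPKM values were 10936123 to 14254229 per sample. The sequenced samples hold 1 siRNA against lnc-SMaRT, so an effect of this siRNA that does not pass through lnc-SMaRT cannot be told apart from the depletion.

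Small heat shock proteins share an alpha-crystallin domain and hold unfolding proteins in a soluble state without using ATP. HSPB1, HSPB8 and CRYAB are made in many tissues and protect desmin filaments and the Z-disc in muscle, whereas HSPB2, HSPB3 and HSPB7 are largely found in heart and skeletal muscle, where HSPB2 and HSPB3 assemble with each other and rise as myoblasts differentiate. HSPB8 binds BAG3, which links it to HSC70, the product of Hspa8, and hands damaged filamin to autophagy. UNC45B folds the motor domain of muscle myosin together with HSP90.

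The promoters of Hspb3, Unc45b, Bag3 and Hspb1 are shown for the motifs they carry. In the comparison the 95% intervals of Hspb3, Unc45b and Bag3 left out 0. Hspb1 is an abundant member whose interval did not. The interval of Hspb7 left out 0 as well, but its promoter is not printed. Windows from 250 bases before to 50 bases after a transcript start were taken from RefSeq on GRCm38.p6. Windows were matched by symbol for 7 of the 10 genes, and Hspb2, Cryab and Hspa8 are named only. The capitals mark matches to GAANNTTC, a pair of units of the heat shock element, and to CANNTG, the E-box bound by myogenic factors. Both motifs read the same on either strand, and in Hspb1 a match to CANNTG starts within the run of capitals that opens with GAANNTTC.
Hspb3, chr13:113663627-113663926, minus strand: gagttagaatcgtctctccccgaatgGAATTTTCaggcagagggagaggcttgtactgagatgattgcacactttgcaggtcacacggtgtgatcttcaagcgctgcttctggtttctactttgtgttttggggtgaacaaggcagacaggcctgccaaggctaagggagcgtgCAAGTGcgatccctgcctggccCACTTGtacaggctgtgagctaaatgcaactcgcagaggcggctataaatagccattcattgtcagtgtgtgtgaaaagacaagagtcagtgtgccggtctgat
Unc45b, chr11:82911003-82911302, plus strand: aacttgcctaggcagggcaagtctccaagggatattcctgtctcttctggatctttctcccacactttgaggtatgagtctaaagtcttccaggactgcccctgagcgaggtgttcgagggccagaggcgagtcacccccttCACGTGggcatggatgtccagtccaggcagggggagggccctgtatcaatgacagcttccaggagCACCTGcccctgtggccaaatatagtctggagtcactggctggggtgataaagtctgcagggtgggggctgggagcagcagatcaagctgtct
Bag3, chr7:128523333-128523632, plus strand: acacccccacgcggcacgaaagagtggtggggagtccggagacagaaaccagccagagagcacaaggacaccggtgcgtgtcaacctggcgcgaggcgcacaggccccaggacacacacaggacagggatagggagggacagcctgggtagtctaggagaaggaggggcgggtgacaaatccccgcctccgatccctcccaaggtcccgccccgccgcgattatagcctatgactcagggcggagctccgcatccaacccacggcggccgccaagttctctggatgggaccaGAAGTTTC
Hspb1, chr5:135887669-135887968, plus strand: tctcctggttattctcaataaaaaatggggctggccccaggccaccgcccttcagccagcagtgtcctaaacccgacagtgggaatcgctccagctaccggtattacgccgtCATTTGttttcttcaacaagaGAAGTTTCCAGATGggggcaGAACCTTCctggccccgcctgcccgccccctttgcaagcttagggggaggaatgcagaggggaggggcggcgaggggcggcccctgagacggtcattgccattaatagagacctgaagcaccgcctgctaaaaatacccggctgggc
GAANNTTC was found in the windows of 5 of the 7 genes, Hspb1, Hspb3, Hspb6, Hspb8 and Bag3, whereas 7.86% of all 32851 windows held it. The Hspb1 window held it at -117 and at -97 from the start, and in Bag3 it lay 43 bases into the transcript. The inverted form TTCNNGAA was in none of the 7 and in 8.52% of all windows. CANNTG was found in 5 of the 7 genes and in 72.3% of all windows. In Hspb7, whose window is not printed, it lay at -17. CAGCTG and the CArG box of serum response factor were searched as well and were in none of the 7, against 16.3% and 1.63% of all windows. TATAAA was in 2 of the 7, Hspb3 and Hspb6, against 13.6%. Both strands were searched for each motif, and the 8 motifs were chosen with the members known. The counts of members are per gene, whereas the shares of all windows are per window, so they are not on the same scale. Hspb6 had windows from 30552290 and from 30553051 on chromosome 7. Its matches to GAANNTTC and TATAAA lay in the second alone. Hspb3 carried CANNTG at -76 and -54 and also held a MEF2 site at -12, which 3.19% of all windows held and which overlaps a match to TATAAA. The match at -108 in Unc45b is CACGTG, found in 7.15% of all windows and in no other of the 7 genes. A match is a description of the letters and does not show that a factor binds there.

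In control cells the level per length spanned a wide range. Hspa8, the constitutive Hsp70 of the cytosol, was the most abundant member, with an RPKM of 554.8 ± 38.9 (SD, n = 2), above 99.2% of all rows. Its row joins Hspa8 with Snord14c, Snord14d and Snord14e, small nucleolar RNA genes in its introns, and reads may be shared with processed copies elsewhere in the genome, so its level is uncertain. Next came Hspb8 with 169.1 ± 11.8, Cryab with 158.1 ± 6.73 and Hspb1 with 126.6 ± 1.69 (SD, n = 2). Hspb8 was above Cryab in both control samples, although their ranges over the 2 samples overlapped. Hspb2 with 73.5 ± 5.68 and Unc45b with 73.1 ± 0.257 changed order between the samples. Hspb3 followed at 11.8 ± 0.314, Bag3 at 7.79 ± 2.0002 and Hspb7 at 3.14 ± 0.00267. Hspb6 was at 0.593 ± 0.206, with 13 and 24 reads in the control samples, and 6.54% of all rows lay below it. The 3 abundant small heat shock proteins Hspb8, Cryab and Hspb1 made up 82.5% and 84.6% of the summed RPKM of the 7 small heat shock protein genes in the control samples.

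**Figure D1:**
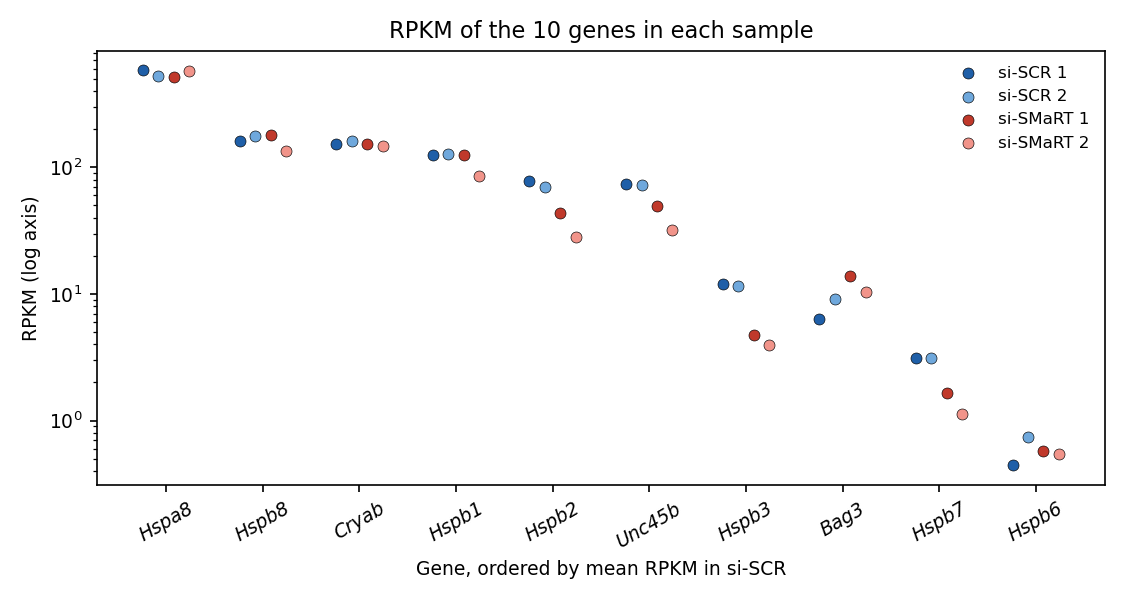
RPKM of each of the 10 genes (log axis) in the 2 si-SCR samples (blue) and the 2 si-SMaRT samples (red), 1 point per sample, ordered by the mean in si-SCR. For Hspb2, Unc45b, Hspb3 and Hspb7 both red points lie below both blue points by a clear gap, for Bag3 both lie above, and for Hspa8, Hspb8, Cryab and Hspb6 the colours overlap.

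Depletion was checked on the targeted RNA. Lnc-SMaRT had an RPKM of 19.1 and 15.9 in si-SCR and of 2.88 and 3.65 in si-SMaRT. The log2 fold change was -2.39 with a standard error (SE) of 0.28, at an adjusted p of 0.000882 in limma, where p-values were adjusted over all rows tested. Of the muscle differentiation markers, 12 of 12 were listed, among them Myog, the factor that starts terminal differentiation, with an RPKM of 1015 and 1114 in si-SCR, and their summed RPKM was 10876 and 11439 in si-SCR and 8010 and 5546 in si-SMaRT. In 9 of the 12 both si-SMaRT values lay below both si-SCR values, against 20.4% of all rows, while in the other 3 the groups overlapped. Pax7, the marker of quiescent satellite cells, was not listed, and among markers of fat, bone, endothelium and blood 3 of 10 were listed, with a summed RPKM of 3.53 to 4.30 per sample. The members and the differentiation markers were measured in bulk samples, in which fewer differentiated cells and less RNA per cell cannot be told apart.

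Of the 10 genes, Hspb3 passed an adjusted p of 0.05, lower in si-SMaRT, and 0 passed in the other direction. Over all 11086 rows tested, 0.505% were called, 0.325% lower and 0.180% higher. At an unadjusted p under 0.05 in limma there were 4 members lower, Hspb2, Hspb3, Hspb7 and Unc45b, against 5.60% of all rows, and 1 higher, Bag3, against 3.49% (9.09% in either direction). With voom on the recovered reads Hspb3 was again the member called (adjusted p = 0.0460), against 0.974% of all rows in either direction and 0.686% lower, and 0 members were called higher. Complete separation with si-SMaRT lower was seen for 5 members, which holds for 20.4% of all rows, and with si-SMaRT higher for 1 member, which holds for 20.2%. The median log2 fold change of the 10 was -0.21, beside 0.02 for all rows. The median of the 10 was -0.45 without si-SMaRT 1, -0.33 without si-SCR 1, -0.07 without si-SMaRT 2, -0.06 with the GC trend removed and -0.09 under quantile normalization.

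**Figure D2:**
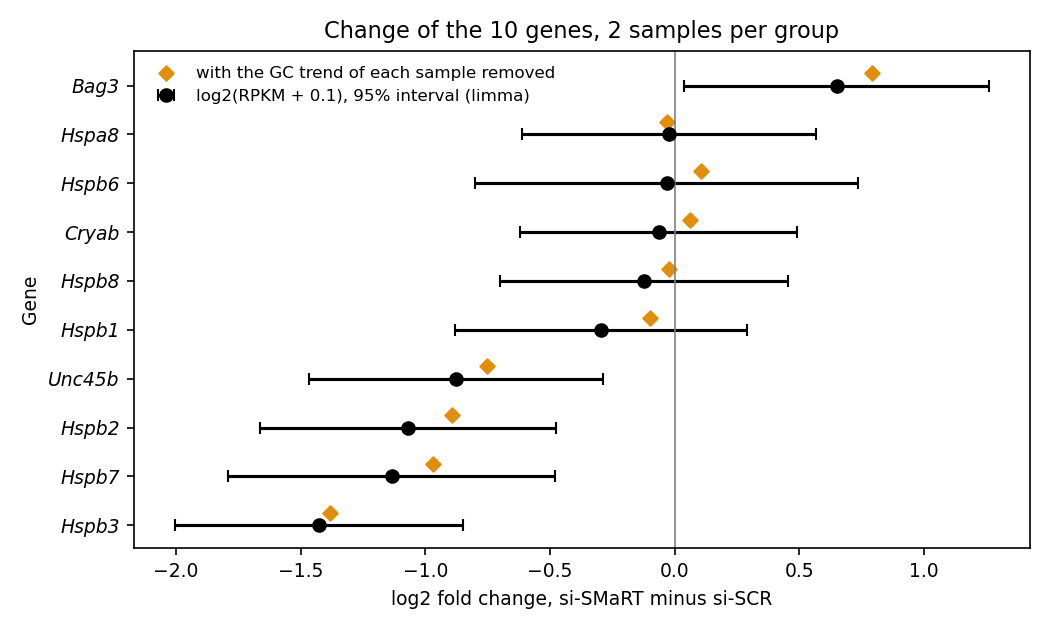
Log2 fold change of each gene, si-SMaRT minus si-SCR, with its 95% interval from limma (black, 2 samples per group) and the value with the GC trend of the samples taken out (orange). The intervals of Hspb3, Hspb7, Hspb2, Unc45b and Bag3 leave out 0, those of the other 5 genes include it, and of all 10 Hspb3 passed the adjusted threshold.

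Hspb3, on the minus strand of chromosome 13 from 113662896 to 113663676 (GRCm38), encodes a protein that assembles with HSPB2, and it fell in si-SMaRT. Its RPKM was 12.0 and 11.6 in si-SCR, from 119 and 128 reads, and 4.76 and 3.94 in si-SMaRT, from 42 and 44 reads. The groups did not overlap, and the means differed 2.72-fold. The log2 fold change was -1.43 (SE 0.27, 95% interval -2.004 to -0.85, limma adjusted p = 0.0232), and the gap between the groups was larger than the spread within either. The exons of Hspb3 have a GC content of 51.5%, and with the trend of GC content removed its log2 fold change was -1.38 (adjusted p = 0.00428). The call was lost when si-SCR 1 was left out (log2 fold change -1.40) and when si-SCR 2 was left out (-1.45). In those fits the spread comes from the 2 si-SMaRT samples, and limma draws that of each gene toward a trend fitted over all genes. Over its 16 alternatives the value lay between -1.56 and -1.26.

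Hspb2, the partner of Hspb3, had an RPKM of 77.5 and 69.5 in si-SCR and of 43.6 and 27.9 in si-SMaRT. Both depleted samples were below both controls, and si-SMaRT 2 was the lowest. The log2 fold change was -1.07 (SE 0.28, limma adjusted p = 0.127), above the threshold of 0.05. Hspb2 passed with the trend of GC content removed (-0.89, adjusted p = 0.0238), which called 2.40% of all rows lower. It did not pass with the replicate number added to that fit as a block (adjusted p = 0.0663). Its log2 fold change was -1.39 without si-SMaRT 1 and -0.75 without si-SMaRT 2. The RPKM of Hspb2 was 6.44 and 5.99 times that of Hspb3 in si-SCR and 9.16 and 7.10 times in si-SMaRT, so in both groups Hspb2 was the more abundant of the pair.

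Hspb7, on chromosome 4 from 141420779 to 141425311, encodes a protein that binds filamin and keeps actin filaments in order in muscle. Its RPKM was 3.14 in both si-SCR samples and 1.66 and 1.14 in si-SMaRT, with 110, 123, 52 and 45 reads. The groups did not overlap. The log2 fold change was -1.13 (SE 0.31, limma adjusted p = 0.150), and the pseudocount of 0.1 RPKM shrinks the change of a gene this low. With the trend of GC content removed it was -0.97 (adjusted p = 0.0260), a fit that called 2.40% of all rows lower. With the replicate number added to that fit as a block the adjusted p was 0.0691. The log2 fold change was -1.39 without si-SMaRT 1 and -0.88 without si-SMaRT 2.

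Unc45b, the myosin chaperone, lies on chromosome 11 from 82910550 to 82943403, and its RPKM was 73.3 and 73.0 in si-SCR and 49.2 and 32.1 in si-SMaRT. The controls were close together, and the depleted samples were both lower and further apart. The log2 fold change was -0.88 (SE 0.28, limma adjusted p = 0.247). It was -0.75 with the trend of GC content removed (adjusted p = 0.0277), a fit that called 2.40% of all rows lower. With the replicate number added to that fit as a block the adjusted p was 0.073. Without si-SMaRT 1 the log2 fold change was -1.19, and without si-SMaRT 2 it was -0.57.

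Bag3, on chromosome 7 from 128523616 to 128546981, encodes the co-chaperone that couples small heat shock proteins to Hsp70 and autophagy, and was the member with values in the other direction. Its RPKM was 6.37 and 9.20 in si-SCR and 14.0 and 10.4 in si-SMaRT, from 209, 337, 409 and 387 reads. These reads are lower limits, since the gene length was not known from the annotation. Both depleted samples lay above both controls, but the gap between si-SCR 2 and si-SMaRT 2 was smaller than the difference within either group. The log2 fold change was 0.65 (SE 0.29, 95% interval 0.04 to 1.26, limma adjusted p = 0.5002). With the trend of GC content removed it was 0.79 (adjusted p = 0.0407), a fit that called 1.70% of all rows higher. With the replicate number added to that fit as a block the adjusted p was 0.0691. Bag3 was at 0.39 without si-SCR 1, 0.44 without si-SMaRT 1 and 0.86 without si-SMaRT 2.

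For the other 5 members no change was detected. Cryab, the alpha-B crystallin of muscle and lens, had an RPKM of 153.3 and 162.8 in si-SCR and of 153.7 and 148.6 in si-SMaRT. The groups overlapped, and the 95% interval of the log2 fold change of -0.06 ran from -0.62 to 0.49, so a change of a size like that of Hspb2 lies outside it. Hspb8, the partner of BAG3, was at 160.8 and 177.4 in si-SCR and at 178.5 and 134.8 in si-SMaRT, with a log2 fold change of -0.12 (95% interval -0.70 to 0.45). Hspa8 was at 582.3 and 527.3 in si-SCR and at 515.9 and 577.4 in si-SMaRT, with a log2 fold change of -0.02 (95% interval -0.61 to 0.57).
Hspb1 was at 125.4 and 127.8 in si-SCR and at 124.7 and 85.2 in si-SMaRT. Both depleted values were below the controls, but the first lay close to them and the second far lower. Its log2 fold change was -0.30 (95% interval -0.88 to 0.29, limma adjusted p = 0.827). It was -0.02 without si-SMaRT 2 and -0.57 without si-SMaRT 1. Hspb6, a small heat shock protein of contractile tissues, was at 0.447 and 0.739 in si-SCR and at 0.578 and 0.547 in si-SMaRT. Its 13, 24, 15 and 18 reads have 95% exact Poisson intervals from 6.92 to 35.7 reads, which cover counting error only. The 95% interval of its log2 fold change of -0.03 ran from -0.80 to 0.74. The pseudocount of 0.1 RPKM shrinks the change of a gene this low. The SE was 0.36, against 0.42 with a pseudocount of 0.01 and 0.48 with voom on the recovered reads. With so few reads, a change of the size seen for Hspb2 cannot be called excluded.

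Hspb2 and Cryab are neighbours that run in opposite directions. On GRCm38 in GENCODE M21, Hspb2 lies on the minus strand of chromosome 9 from 50751078 to 50752354 and Cryab on the plus strand from 50751325 to 50756636. Of the 6 annotated Cryab transcripts 2 start inside Hspb2, and the nearest other Cryab start is 553 bases from that of Hspb2. Within each sample the RPKM of Hspb2 was 0.506 and 0.427 of that of Cryab in si-SCR and 0.284 and 0.188 in si-SMaRT. The ratio was lower in both depleted samples, and it takes out differences in depth between the libraries. It does not take out the trend along GC content, which is 59.7% in Hspb2 and 54.0% in Cryab. What that trend adds to the ratio was not tested. The library kit keeps the strand, but the strand setting of the counting is not given in the sources used here, so reads from the stretch shared by both genes may not be told apart.

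**Figure D3:**
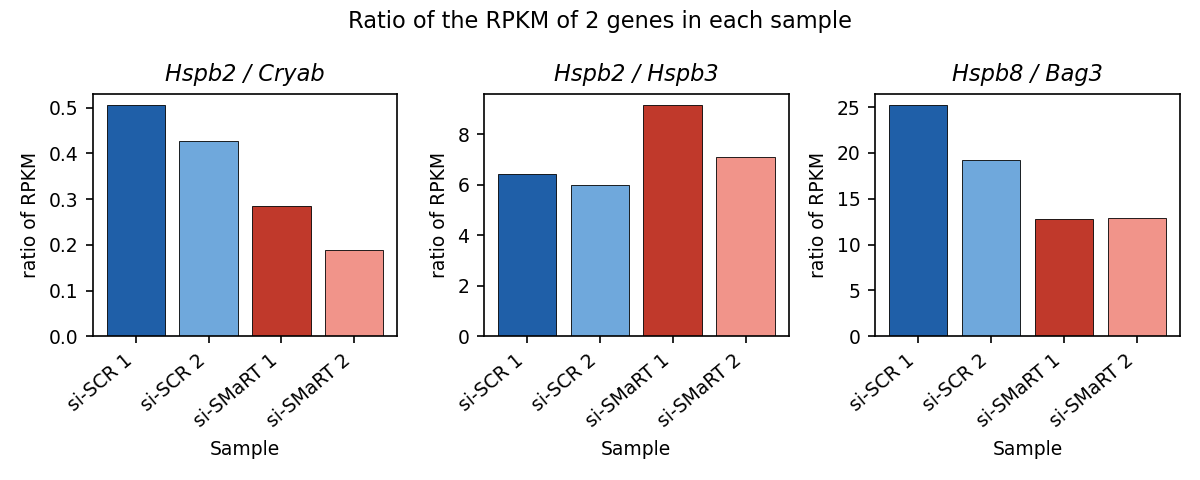
Ratio of the RPKM of Hspb2 to Cryab, Hspb2 to Hspb3 and Hspb8 to Bag3 in each of the 4 samples, with bars from 0. Hspb2 to Cryab is 0.506 and 0.427 in si-SCR and 0.284 and 0.188 in si-SMaRT, and Hspb8 to Bag3 is 25.2 and 19.3 against 12.8 and 12.9.

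The makeup of the family followed from these values. The 7 small heat shock protein genes summed to an RPKM of 532.6 and 553.0 in si-SCR and of 507.6 and 402.1 in si-SMaRT. Hspb2, Hspb3 and Hspb7 held 17.4% and 15.2% of the sum in si-SCR and 9.86% and 8.21% in si-SMaRT. Most of that share was Hspb2, at an RPKM of 77.5 and 69.5 in si-SCR and of 43.6 and 27.9 in si-SMaRT. Hspb2 did not pass in limma (adjusted p = 0.127). Hspb8 was at 25.2 and 19.3 times the RPKM of Bag3 in si-SCR and at 12.8 and 12.9 times in si-SMaRT. Hspa8 stood at 91.3 and 57.3 times Bag3 in si-SCR and at 36.9 and 55.3 times in si-SMaRT. These ratios are descriptions, with no test.

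The si-SMaRT samples differed from each other along GC content, and this bears on the members, whose exons have a GC content of 49.7% in Hspa8 to 61.2% in Hspb1. Across 10948 genes, the log2 difference between si-SMaRT 2 and si-SMaRT 1 gave Spearman's rho = -0.844 against GC content, and that between si-SCR 2 and si-SCR 1 gave 0.354. These correlations are across genes of the same libraries, which are not independent. The difference between the si-SMaRT samples was -0.64 for Hspb2, -0.62 for Unc45b, -0.55 for Hspb1 and -0.51 for Hspb7. For Hspb3 it was -0.27 and for Cryab -0.05. With the trend removed, 4 members passed lower and 1 higher, Bag3, while that fit called 4.10% of all rows. With the replicate number added to it as a block, Hspb3 was the member called, lower (adjusted p = 0.0129), against 1.12% of all rows in either direction and 0.712% lower. The part of GC content in the values of the members was not tested further. In the read numbers given by the paper, more read pairs were removed as rRNA or tRNA in si-SMaRT 1 than in any other of these samples. What this adds to the difference between the si-SMaRT samples was not tested.

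**Figure D4:**
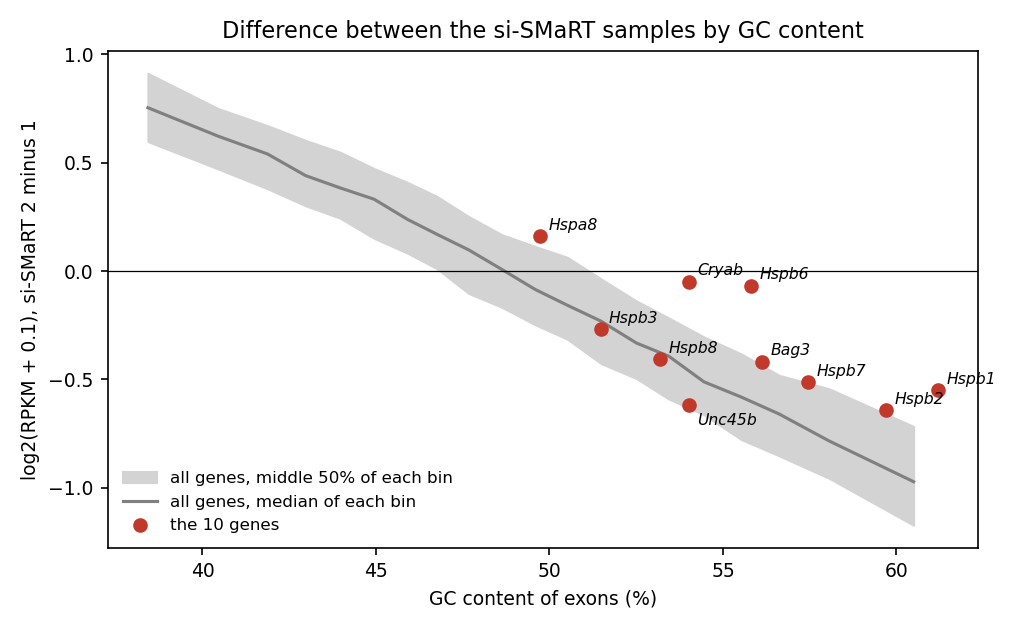
Log2 difference between si-SMaRT 2 and si-SMaRT 1 against the GC content of exons, for all genes in 20 bins of equal size (grey line, median, and band, middle 50%) and for the 10 genes (red points). The grey line runs from 0.75 at the lowest GC content to -0.97 at the highest. Hspb3 and Hspb8 lie close to it, Unc45b lies near the lower edge of the band, Hspb2 and Hspb7 near its upper edge, and Hspa8, Cryab, Hspb6, Bag3 and Hspb1 above it.

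The rest of the chaperone network was read from 10 lists of 107 genes outside the members, of which 101 were tested. In limma 1 was called lower and 0 higher, against 0.325% and 0.180% of all rows, with 5 and 2 at an unadjusted p under 0.05, against 5.60% and 3.49%, and with 1 and 0 called by voom on the recovered reads. Both si-SMaRT samples were below both controls in 26 and above them in 11 of the 101, against 20.4% and 20.2% of all rows, and the median log2 fold change was -0.02. The other small heat shock protein genes, Cryaa, Hspb9 and Odf1, which are expressed in lens or testis, were not listed.

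The gene called was Csrp3, which encodes the muscle LIM protein of the Z-disc. It fell from an RPKM of 23.1 and 19.3 to 9.01 and 7.76, a log2 fold change of -1.32 (SE 0.27, limma adjusted p = 0.0356). The call was lost under quantile normalization (adjusted p = 0.0631), without a trended prior (0.0546), without si-SCR 1 (1) and without si-SCR 2 (0.750). Csrp3 belongs to the filament and Z-disc partners of the small heat shock proteins, where 3 of 7 tested genes were below and 1 above in both depleted samples and the median was -0.29. Desmin, the filament that CRYAB and HSPB1 protect, was at 662.8 and 763.0 in si-SCR and at 647.8 and 357.3 in si-SMaRT (Des, log2 fold change -0.56, adjusted p = 0.633). Vimentin, its counterpart in undifferentiated cells, was at 365.6 and 406.3 and at 570.8 and 567.8 (Vim, 0.56, adjusted p = 0.569). Neither passed. Des was at -0.99 without si-SMaRT 1 and at -0.13 without si-SMaRT 2.

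Among the 8 muscle myosin heavy chains, the clients of UNC45B, 0 were called by limma, 2 were lower and 1 higher at an unadjusted p under 0.05, and 0 passed lower or higher with the GC trend removed. Embryonic myosin Myh3 was the most abundant, at 1161 and 1260 in si-SCR and 831.3 and 714.5 in si-SMaRT (log2 fold change -0.65, adjusted p = 0.5002). Myh1 was at 118.8 and 160.1 and at 144.9 and 121.3, so the groups overlapped. Myh7b had the value furthest from 0, -1.07 (SE 0.41, limma adjusted p = 0.359), at an RPKM of 0.527 to 2.54. It was -1.74 without si-SMaRT 1 and -0.40 without si-SMaRT 2, so it rests on si-SMaRT 2.
Of the 16 genes of the Hsp90 family and its co-chaperones, 0 were called by limma, with 1 lower and 1 higher at an unadjusted p under 0.05, and the median was 0.02. Hsp90aa1 (log2 fold change 0.29) and Hsp90ab1 (0.18) were the most abundant. Smyd1, a methyltransferase of muscle that works with UNC45B and HSP90 on myosin, was at 45.0 and 40.05 in si-SCR and 26.2 and 25.8 in si-SMaRT (-0.70, adjusted p = 0.343), and it passed with the GC trend removed (adjusted p = 0.0312, against 2.40% of all rows called lower) but not with the replicate block added to that fit (0.0862).

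The Hsp70 family and its nucleotide exchange factors had 18 tested genes, with 0 called by limma, 0 at an unadjusted p under 0.05 and a median of 0.09. Hspa9 and Hspa5, the Hsp70 proteins of mitochondria and of the endoplasmic reticulum, had log2 fold changes of -0.12 and -0.11. Hspa1b, an inducible Hsp70, was at 4.23 and 5.45 in si-SCR and 8.47 and 6.08 in si-SMaRT (0.57, adjusted p = 0.584, and adjusted p = 0.0407 with the GC trend removed, a fit that called 1.70% of all rows higher, but 0.0841 with the replicate block added). Its reads may be shared with the near-identical Hspa1a, which overlapped between the groups.
Of the 8 stress-inducible heat shock genes, which are targets of HSF1, 0 were called by limma and 0 had an unadjusted p under 0.05. Their median was 0.14 and their range -0.18 to 0.57, with Hspd1 at 0.30 and Dnajb1 at -0.18. For the heat shock factors, Hsf1 was at 22.8 and 27.0 in si-SCR and 25.2 and 17.4 in si-SMaRT, Hsbp1 had a log2 fold change of -0.15, and Hsf4 one of -1.21 (SE 0.45, limma adjusted p = 0.346) that rests on si-SMaRT 2, at 0.837 against 3.59 in si-SMaRT 1. Without si-SMaRT 1 Hsf4 was at -2.19 and without si-SMaRT 2 at -0.22.
The 20 J-domain co-chaperones had a median of 0.04, with Dnaja2 at 0.13, Dnajc8 at -0.20 and Dnajb2 at -0.50 as the value furthest from 0 among separated genes. The 16 chaperonin and prefoldin genes had a median of -0.15, with Cct5 at -0.27, Cct2 at -0.01 and Pfdn6 at -0.36. The 14 partners in chaperone-assisted autophagy had a median of 0.02, with Lamp1 at -0.09, Sqstm1 at -0.23 and Becn1 at -0.24. Without si-SMaRT 1, Dnajb2 was at -0.75, Hsf1 at -0.51 and Hsp90aa1 at 0.69. Without si-SMaRT 2 they were at -0.25, 0.02 and -0.11. In the J-domain, chaperonin and autophagy lists 0 genes were called by limma and 0 had an unadjusted p under 0.05.

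**Figure D5:**
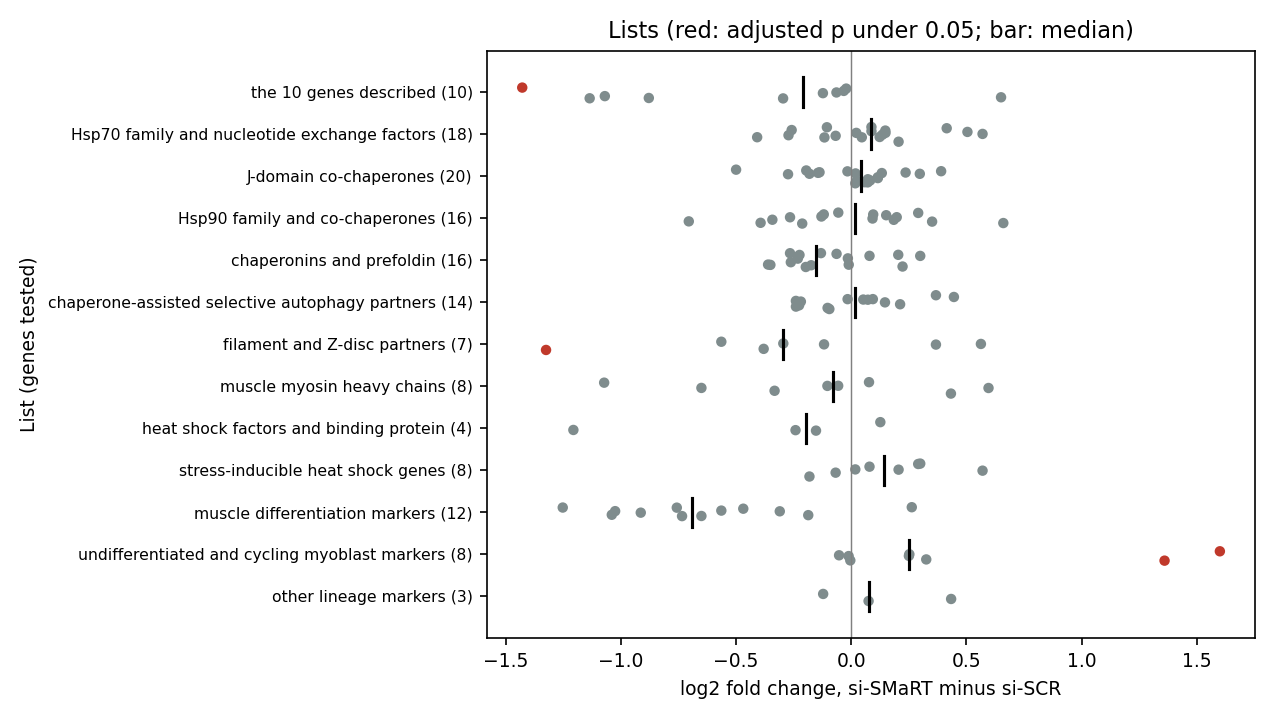
Log2 fold change, si-SMaRT minus si-SCR, of each tested gene of the 10 described, of 9 chaperone lists with tested genes and of 3 marker lists (1 point per gene, black bar at the median, red for an adjusted p under 0.05 in limma). The chaperone lists centre between -0.29 and 0.14, the muscle differentiation markers at -0.69, and the red points are Hspb3, Csrp3, Id3 and Ccnd1.

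Markers of differentiation and of myoblasts are given beside the members. The 12 differentiation markers had a median log2 fold change of -0.69, with 6 lower at an unadjusted p under 0.05 against 5.60% of all rows, 0 called by limma, and 3 called lower with the GC trend removed against 2.40%. Of 8 listed markers of undifferentiated and cycling myoblasts, 2 were called higher, against 0.180% of all rows. The median of the 8 was 0.25, and 3 of them lay below 0. The 2 called were Id3, an inhibitor of myogenic factors (log2 fold change 1.60, limma adjusted p = 0.0232), and the cell cycle gene Ccnd1 (1.36, adjusted p = 0.0356). Without si-SCR 1 the adjusted p was 0.716 for Id3 and 0.764 for Ccnd1, and without si-SCR 2 it was 0.345 and 1.00. The call of Ccnd1 was also lost under quantile normalization (adjusted p = 0.0619) and with no filter on low values (0.0531). The 8 markers summed to an RPKM of 179.1 and 151.2 in si-SCR and 171.9 and 238.3 in si-SMaRT. The part of these differences in the values of Hspb2, Hspb3, Hspb7 and Unc45b was not tested.

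Peaks of RNA pulled down with probes to lnc-SMaRT, and with control probes to LacZ, were called on 1 library each and gave lists of 345 and 336 peaks. No exon of 9 of the members was overlapped by a peak of either list on its strand. Hspa8 carried 1 peak in both, on chromosome 9 of GRCm38 from 40802801 to 40803000, plus strand, with the same bounds in the authors' lists (p = 0.000186 for lnc-SMaRT and p = 0.00145 for LacZ). The bin is shared with the control, and the depth under the peaks is not known, so the lists do not separate Hspa8 from the background of the pull-down. The paper did not count a transcript as bound where a LacZ peak against the input overlapped its exons, and Hspa8 carried a LacZ peak.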

How the data were processed

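Total RNA of 2 si-SCR and 2 si-SMaRT samples was analysed, with 2 peak lists of the pull-down. Deposited RPKM values came from reads that the authors trimmed with Trimmomatic, cleared of rRNA and tRNA with Bowtie 2, mapped by TopHat2 on GRCm38 and counted over Ensembl 77 genes by htseq-count in its strict intersection mode. Genes of low CPM were dropped and TMM scaling applied. Peaks carry a p-value from Piranha, run by the authors with the input as a covariate.

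The tests used limma 3.58.1 (R 4.3.3) on log2(RPKM + 0.1) for rows whose mean RPKM reached 0.5, with a trended prior, adjustment after Benjamini and Hochberg, and a threshold of 0.05. Fold changes are on this scale. The p-values measure the spread between 2 samples per group, which limma draws toward a trend fitted over all genes. Reads were recovered from the steps of the RPKM values for all 11642 rows, to a tolerance of 0.001 reads that widens to 0.0209 for the most abundant row. Gene lengths of GENCODE M21 gave whole reads in 5904 rows, and for the other 5738 the smallest length that did was used, so their reads are lower limits. On simulated data 98.7% of 3000 rows were recovered exactly. The GC trend was removed per sample with a loess fit of span 0.3 (98.5% of rows had a GC content). The genes named were the members, lnc-SMaRT, list genes past the threshold and, per list, the 2 most abundant genes and the separated gene with the largest change. Genes such as Flnc that stand in several lists were counted in each. The markers Myog, Id3 and Ccnd1, and Hspa1a and Dnajb1, were named after their values were seen. The targeted RNA is listed as Lnc-SMaRT. Members, lists and the removal of the GC trend were chosen with earlier results of these data known. Python 3.11.15, numpy, pandas, scipy and matplotlib served for the rest. The alternatives are given in the closing section.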

Additional observations from a re-analysis of the deposited data

How the results depend on the processing

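With 2 samples per group, the spread rests on few values, and Hspb6 rests on 13 to 24 reads per sample. The main fit called 56 genes and 1 member. The number of genes was 37 under quantile normalization, 449 with the GC trend removed and 108 with voom on recovered reads, and 24 to 2908 when each sample was left out. Members past the threshold were 5 with the GC trend removed. When a sample was left out, 1 group held 1 sample, and the number of members past the threshold depended on which sample it was. Genes of the chaperone lists past it were 1 in the main fit, 0 under quantile normalization, 0 without a trended prior, 3 with the GC trend removed and 0 to 22 when each sample was left out. Peaks of the LacZ list on members went from 1 to 0 at a p under 0.001.

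Both groups carry the replicate numbers 1 and 2. The deviations of same-numbered samples had a correlation of -0.362 across genes, and of -0.191 with the GC trend removed. A correlation across genes of the same libraries, which also differ along GC content, cannot tell whether same-numbered samples are paired. With the replicate block 96 genes passed, 123 with the GC trend also removed, and 0 genes of the chaperone lists with the block alone. With the replicate block the adjusted p was 0.0339 for Hspb3, 0.0556 for Csrp3 and 0.0591 for Ccnd1. A crossed pairing, chosen after the data were seen, called 487 genes, 4 members and 3 list genes, and 1739, 5 and 14 with the GC trend removed.

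The sign turned for genes near 0. When each sample was left out, the log2 fold change ran from -0.341 to 0.276 for Hspb6, from -0.326 to 0.0798 for Hspb8, from -0.103 to 0.0594 for Hspa8, from -0.187 to 0.166 for Cct2, from -0.115 to 0.381 for Dnaja2, from -0.417 to 0.112 for Hsbp1, from -0.508 to 0.0246 for Hsf1, from -0.111 to 0.692 for Hsp90aa1, from -0.255 to 0.0439 for Hspa5, from -0.272 to 0.159 for Myh1. Quantile normalization gave 0.0224 for Hspb8, 0.0953 for Cryab, 0.235 for Hspa8, 0.191 for Cct2, 0.0864 for Hspa5, 0.0911 for Hspa9, 0.102 for Lamp1 and 0.0762 for Myh1. Removing the GC trend, with or without either block, gave 0.106 for Hspb6, 0.0608 for Cryab, -0.0109 for Dnaja2 and 0.0133 for Myh1. The cause was not tested. Hspb2, Hspb3, Hspb7 and Unc45b stayed below 0 and Bag3 above 0 under all alternatives run. Their groups did not overlap, so leaving out a sample, adding a block or changing the pseudocount could not turn the sign. Lnc-SMaRT passed in its 13, which leave out those with GC content.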
